A study of Mus musculus with 5 samples.

Results

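The division of the genome into compartments A and B was described in neuronal nuclei of the mouse hippocampus in the state named Basal. Both Basal Hi-C libraries were taken, and within them every 50 kb bin of the 19 autosomes that had a value in both. This gave 47537 bins (2376.8 Mb), out of 51761 bins listed in either library on any sequence and 47560 listed on an autosome. The Basal libraries are 2 of the 5 libraries of the series that were available here.

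Hi-C ligates DNA ends that are near each other in the fixed nucleus and reads both ends, so that the pairs counted report which parts of a chromosome meet. Seen over megabases, most chromosomes fall into 2 sets of regions, each of which meets its own kind more than the other. Compartment A is the open, gene-rich and transcribed set, and compartment B the closed, gene-poor set, much of which lies at the nuclear edge. The first principal component of the interaction matrix (PC1) separates the sets by its sign, and in the convention of HOMER, the program that made these values, a positive PC1 stands for A. The sign of a principal component is arbitrary on each chromosome until it is set by an outside measure such as gene density. How the authors set it was not given in the sources used here. In neurons, which no longer divide, this folding is kept without the resetting that mitosis brings.

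Both Basal libraries carry the same labels. The mice, of genotype +/+, combined the ArcCreERT2 allele with an R26R-STOP-floxed reporter of yellow fluorescent protein (eYFP). ArcCreERT2 is a Cre recombinase that needs tamoxifen to act and is expressed from Arc, a gene that neurons switch on when active, so the reporter marks neurons that expressed Arc around the dose. The treatment label names a foot shock on day 0, no recall, and tissue collected on day 0. The treatment protocol, which is shared by all groups, names a dose of 4-hydroxytamoxifen before contextual fear conditioning, and what separates Basal from the other groups is known only from the titles. Fixed nuclei of the whole hippocampus were incubated with antibodies to NeuN (a marker that neuronal nuclei carry) and GFP, and were sorted by flow cytometry. Whether the GFP-positive or the GFP-negative nuclei, or both, entered the Basal libraries is not given in the labels. A group's library was made from 100000 sorted cells of 2 animals, in 2 biological replicates per the series' design text. Such a pool averages over the neuron types of the hippocampus, and over the 2 parental copies of each chromosome. The neuronal label could not be checked against marker genes, since PC1 measures folding and no annotation of the files' genome build was used here.

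The PC1 tables hold no numbers of reads. The depth is therefore unknown, and the spread between the 2 replicates is the one measure of error. On each autosome the values of each library had a mean between -0.000587 and 0.000701 and an SD from 1.0001 to 1.0008. Each chromosome was thus scaled to itself. A chromosome cannot be mostly A or mostly B except through the shape of its distribution, and levels of PC1 on different chromosomes are not on a common scale. All values below are descriptions of 2 libraries of 1 group, and no test was run.

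Compartment A, with PC1 above 0 in both libraries, held 21236 bins (44.7%). Compartment B, with PC1 below 0 in both, held 24719 bins (52.0%). The replicates differed in sign in 1582 bins (3.33%). Taken alone, replicate 1 had 46.4% of its bins above 0 and replicate 2 had 46.3%. PC1 correlated between the replicates with a Pearson r of 0.988 and a Spearman rho of 0.986 across the 47537 bins, which are not independent. The median absolute difference between replicates was 0.0956 PC1 units, and 263 bins (0.553%) lay more than 0.5 apart.

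**Figure D1:**
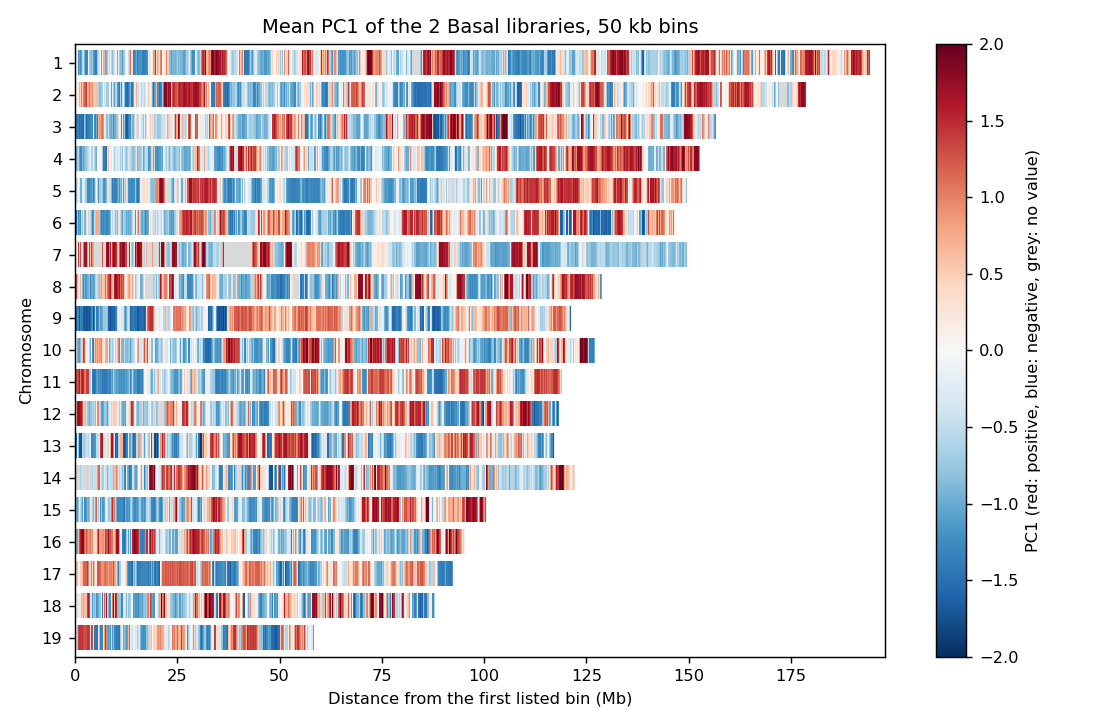
Mean PC1 of the 2 Basal libraries along each autosome, in 50 kb bins, against the distance from the first listed bin in Mb. Red bins are positive, blue bins negative and grey bins had no value; the long pale blue stretch at the end of chromosome 7 is its 24.8 Mb run of negative bins.

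PC1 was spread over 2 broad hills with a shallow valley between them. The bins were densest at a mean PC1 from -1 to -0.8 on the negative side (9.16% of bins) and from 1 to 1.2 on the positive side (5.82%), and 4.56% lay from 0.2 to 0.4. Of all bins, 22.6% lay above 1 and 19.7% below -1, and the median was 1.01 among A bins and -0.865 among B bins. Because each chromosome is centred on 0, the side with fewer bins must lie farther from 0 on average. Only 12.0% of bins lay within 0.25 of 0.

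Chromosome 7 stood apart and is described first, because its values enter every count over the autosomes. Its share of positive bins was the lowest of the 19 autosomes, at 38.1% (38.8% in replicate 1 alone and 38.4% in replicate 2 alone), and its share of negative bins the highest, at 60.9%. RefSeq (GRCm38.p6, used only for the chromosome each gene is on) lists 2030 protein-coding genes on it. That is 14.9 genes per Mb of bins with a value, the highest number of the 19 autosomes, whose median was 7.89. All genes of a chromosome were counted, but bins without a value were left out of the length. Of the listed span of chromosome 7, 8.89% had no value, the most of any autosome, which raises its number. The lead over chromosome 11 (13.5 genes per Mb, 0.126% without a value) therefore rests in part on this choice of length. Over the 19 autosomes, genes per Mb and the share of positive bins had an r of 0.0997 (rho 0.126). Without chromosome 7 the r was 0.488 (rho 0.325, 18 chromosomes). With the sign of chromosome 7 inverted in both libraries it was 0.689 (rho 0.426, 19 chromosomes). Chromosome 7 was chosen for being the extreme in both measures, so a higher r on leaving it out or inverting it is given by the choice. The points share the scaling of each chromosome to itself, and these values are given as a description.

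**Figure D2:**
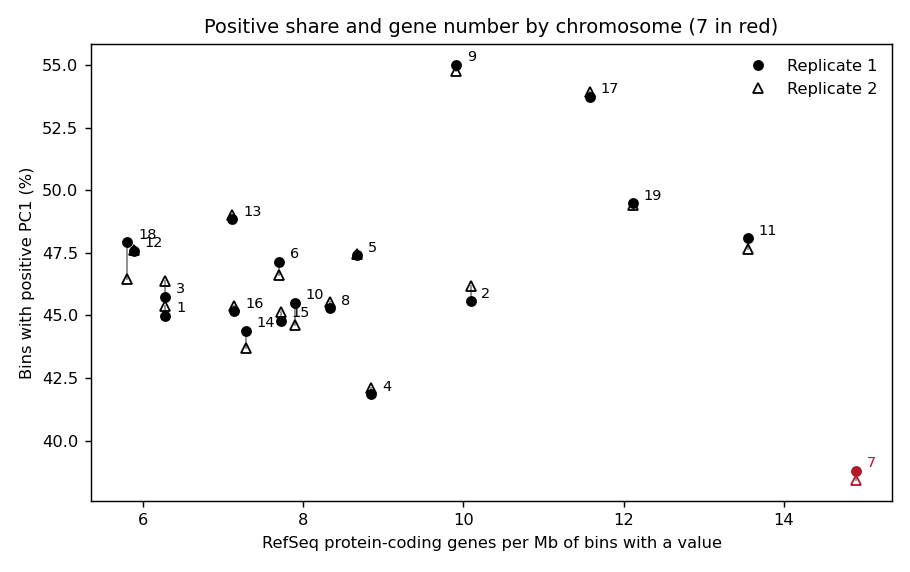
Share of bins with a positive PC1 in each replicate (percent, circles for replicate 1 and triangles for replicate 2) against RefSeq protein-coding genes per Mb of bins with a value, 1 pair of points per autosome. Chromosome 7, in red, has the most genes per Mb (14.9) and the lowest positive share in both replicates (38.8% and 38.4%); the vertical axis starts above 0.

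Other features of chromosome 7 also differed from those of the rest. Its distribution leaned the most to the positive side, with a skewness of 0.669 against -0.342 to 0.414 on the other 18 autosomes, and its median PC1 was -0.462 against -0.279 to 0.244. Its lowest bin reached only -1.21, against -1.47 to -1.96 on the others. The last 20% of the chromosome held 1.51% of bins in positive territory, whereas the other autosomes held between 34.0% and 89.7% there. Stretches of at least 100 kb without a value, which often mark repeated sequence that reads cannot be placed in, numbered 12 on chromosome 7. All 24 of their flanks were positive, where a bin between 2 stretches was counted for each. Several of these stretches lay close together in the first 20% of the chromosome, of which 68.6% was positive, so the flanks are not independent. On the other autosomes 34 of 128 flanks counted in this way (26.6%) were positive, 88 were negative and 6 differed between replicates. The 2 replicates had the highest r of any autosome on chromosome 7, at 0.995, and the lowest SD of their difference, at 0.0960, but their rank correlation (rho 0.982) was near the median of the autosomes (0.983). As deposited, chromosome 7 had the lowest share of positive bins beside the most genes per Mb of bins with a value. Genes were not placed in bins, so the sign was not compared with gene density along the chromosome. For this reason its bins are called positive and negative here, not A and B, and the shares and longest segments are also given without it. The cause was not tested. Without chromosome 7, A held 45.1% of bins and B 51.5%, and 1554 bins had opposite signs.

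Among the other 18 autosomes the share of A ran from 40.5% to 53.7%, with a median of 44.2%. Chromosomes 9 (53.7%), 17 (52.7%) and 19 (47.7%) had the highest shares. Chromosomes 9 and 17 were the only autosomes with more A than B, and the only ones whose median PC1 was above 0, at 0.244 and 0.179. Chromosomes 4 (40.5%), 14 (42.3%) and 10 (43.0%) had the lowest shares after chromosome 7. The share of positive bins in single replicates differed by between 0.0342 percentage points (chromosome 5) and 1.48 (chromosome 18), with a median of 0.348. The gap between chromosomes 9 and 17 and the rest was therefore larger than the difference between replicates on any autosome. The order among chromosomes of middling share was not: chromosomes 8 (43.7%), 16 (43.7%), 2 (43.6%) and 1 (43.4%) lay closer together than the median difference between replicates. Chromosomes 9, 17, 19 and 11 had a low ceiling: their highest bins were at 1.50, 1.42, 1.57 and 1.68, and every other autosome had a bin above 1.8. These were also the autosomes with the highest shares of A (46.7% on chromosome 11). Each chromosome is scaled to itself, so a higher share of A goes with A values closer to 0 on average. The part of this in the low ceilings was not tested.

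A and B were cut into segments, that is, runs of neighbouring bins with the same sign in both replicates. A bin without a value, or with a sign that differed, ended a run. There were 1096 A segments with a mean length of 969 kb and a median of 250 kb, and 1154 B segments with a mean of 1071 kb and a median of 400 kb. Without chromosome 7 there were 1053 and 1123, with means of 959 and 1027 kb and the same medians. The median A segment depended on how runs were cut: it was 450 kb after a running median of 3 bins and 400 kb with every second bin. Short segments were many but held little of the genome. Single-bin segments numbered 168 in A and 147 in B and held 0.791% and 0.595% of the bins of their compartment. The 112 A segments of at least 3 Mb held 53.6% of A, and the 119 B segments of at least 3 Mb held 48.7% of B (105 and 110 segments, with 53.6% and 46.3%, without chromosome 7). Of the length of A, 50% lay in segments of at least 3150 kb. For B that length was 2800 kb, and 2650 kb without chromosome 7. B had more segments of 1 to 2.95 Mb (236, against 151 in A, and 231 against 140 without chromosome 7).

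**Figure D3:**
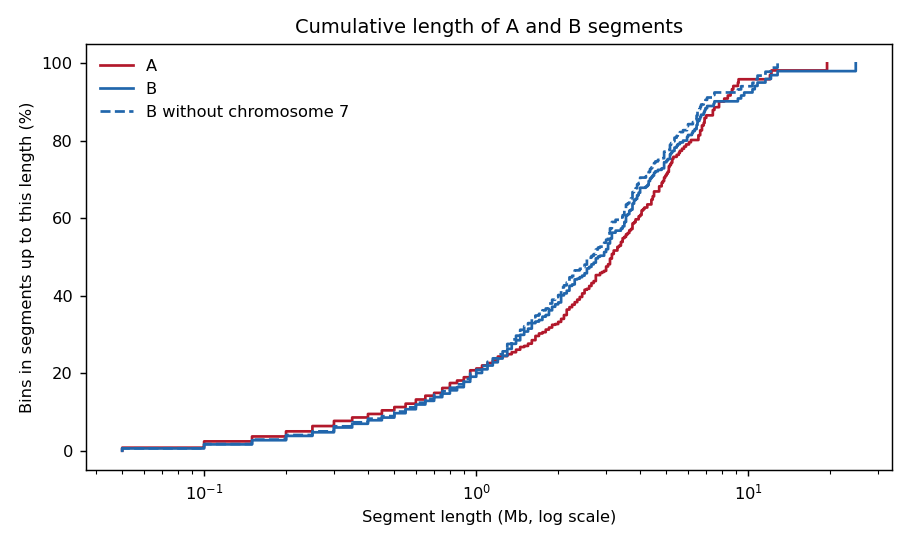
Share of the bins of a compartment (percent) that lie in segments up to a given length in Mb, on a log axis, for A, for B and for B without chromosome 7. The curves run together up to about 1 Mb; segments of at least 3 Mb hold 53.6% of A and 48.7% of B, the curves meet again among the longest segments, and the last step of the solid B curve is the 24.8 Mb run of chromosome 7.

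Longer segments had values farther from 0. The median PC1 of a segment was 0.107 in A segments of a single bin, 0.291 in those of 100 to 450 kb, 0.588 at 500 to 950 kb, 0.998 at 1000 to 2950 kb and 1.15 at 3000 kb or more. In B the medians were -0.0967, -0.252, -0.585, -0.853 and -0.930. The 2 replicates gave this order alike, with 1.16 and 1.14 in the longest A class and -0.923 and -0.930 in the longest B class. Neighbouring bins share reads through the 100 kb windows, so the value of a single-bin segment is not independent of neighbours across 0. The part of this in the trend was not tested.

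By chromosome, the median B segment was longer than the median A segment on 17 of the 19 autosomes and equal to it on 1, chromosome 13. Chromosome 17 was the exception, with 600 kb in A and 350 kb in B. Chromosome 7 is counted among the 17 by its sign as deposited, with 750 kb negative and 500 kb positive. The longest median A segments were on chromosomes 17 (600 kb), 7 (500 kb, positive) and on 6 and 8 (350 kb each), and the shortest on chromosomes 5 (150 kb), 4 and 18 (200 kb each). For B the longest medians were on chromosomes 6 (800 kb), 7 (750 kb, negative), 3 and 9 (600 kb each), and the shortest were 250 kb on chromosomes 5 and 11. Chromosome 18 was the most finely divided: 50% of its A lay in segments of at least 1900 kb and 50% of its B in segments of at least 1450 kb, both the lowest of any autosome. Its longest A segment, at 3 Mb, was also the shortest such maximum, and the longest of any autosome was, as deposited, 19.45 Mb on chromosome 4.

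The ranking of A domains takes the sign of chromosome 7 as deposited, and inverting it gave a longest A segment of 24800 kb. As deposited, the longest A domain lay on chromosome 4 from 122550001 to 142000000 (mm9). It spanned 19.45 Mb without a bin at or below 0 in either replicate and held 32.0% of the A bins of its chromosome. Its mean PC1 was 1.32 in replicate 1 and 1.30 in replicate 2, and its bins ran from 0.134 to 1.95. A second A domain of 8.4 Mb, from 147250001 to 155650000, ended at the last listed bin of chromosome 4, with means of 1.43 and 1.42. The distal end of chromosome 4 was thus mostly A, at 86.5% of its last 20%, while 12.2% of its first 20% was A.

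Chromosome 9 held the next longest A domains. From 40100001 to 52250000 (12.15 Mb) PC1 averaged 0.952 and 0.932 in the replicates, and from 55900001 to 67900000 (12 Mb) it averaged 1.01 and 0.999. These were broad and even domains, with highest bins of 1.37 and 1.40, below those of the chromosome 4 domain. The first lies mostly in the second 20% of chromosome 9, of which 69.1% was A, and the second lies wholly in the middle 20%, of which 84.9% was A, the highest share of any autosome in each of these portions.

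The other 6 of the 10 longest A domains were between 8.15 and 9.2 Mb long. They lay on chromosome 5 from 110500001 to 119700000 (mean 1.25) and from 125150001 to 133750000 (0.890), and on chromosome 2 from 26700001 to 35850000 (1.37). The rest lay on chromosome 13 from 51450001 to 60250000 (1.34) and from 92750001 to 100900000 (1.08), and on chromosome 17 from 23850001 to 32550000 (1.15). The replicate means of each of the 10 differed little, with an SD (n = 2) from 8.76e-05 to 0.0195. The 10 domains together spanned 104.6 Mb, which is 9.85% of A.

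The longest negative run of all was on chromosome 7, from 127750001 to 152550000. It spanned 24.8 Mb, reached the last listed bin and held 29.9% of the negative bins of that chromosome. Its mean PC1 was -0.728 and -0.719 in the replicates, and its bins ran from -1.09 to -0.131. A second run of chromosome 7, from 116550001 to 126200000 (9.65 Mb), had means of -0.845 and -0.838. With chromosome 7 set aside, the longest B domain spanned 12.8 Mb.

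That domain lay on chromosome 11 from 7050001 to 19850000, with a mean PC1 of -1.17 in both replicates and bins down to -1.57. A further B domain of the same chromosome, from 35650001 to 46000000 (10.35 Mb), had means of -0.966 and -0.991. B was accordingly gathered in the proximal part of chromosome 11: A made up 18.4% and 13.7% of its first and second 20%, and 61.9% to 70.4% of the others. Chromosome 15 held a B domain of 12.1 Mb from 12800001 to 24900000, with means of -1.02 and -1.02.

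Chromosome 1 held 11.55 Mb of B from 108700001 to 120250000 (means -1.19 and -1.18) and, just proximal to it, 7.5 Mb from 100000001 to 107500000 (-0.860 and -0.856). On chromosome 9 a B domain of 10.55 Mb reached from 3050001, just after the first listed bin, to 13600000, and with means of -1.31 and -1.32 it was the lowest of the 10 longest. Chromosome 5 had 10.8 Mb of B from 53700001 to 64500000 (-1.13 and -1.14). The remaining long B domains were on chromosome 3 from 41550001 to 50950000 (-0.760 and -0.794), on chromosome 6 from 61600001 to 70750000 (-0.992 and -0.983) and on chromosome 2 from 104650001 to 112100000 (-0.926 and -0.928). In each domain named the replicates differed by far less than the distance of either from 0. Domains were chosen by the same sign in both replicates and average many bins, so this follows in part from the choice. The longest B domain of a chromosome was shortest on chromosome 13, at 4.25 Mb.

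The share of A was higher toward the distal ends. Mouse autosomes are telocentric, with the centromere at the start of the numbering, and the listed bins began between 2.95 and 3.05 Mb. Over the autosomes A held 36.2% of the first 20% of the listed length, then 41.9%, 38.5% and 48.0%, and 58.5% of the last 20%. Mean PC1 went from -0.161 and -0.158 in the replicates in the first portion to 0.295 and 0.298 in the last. Without chromosome 7 the first and last portions were 34.4% and 62.3% A. The last 20% held more A than the first on 14 of the 19 autosomes, and it held the most A of the 5 portions on 8 of them.

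Chromosomes 15, 4 and 9 ran the furthest in this direction, with 85.6%, 86.5% and 78.9% of A in the last 20% and 11.2%, 12.2% and 14.6% in the first. Chromosome 5 had the most A in its last 20%, at 89.7%, and 30.9% in its first. Chromosome 16 ran the other way, from 74.8% in the first to 10.8% in the 60 to 80% portion and 45.0% in the last. Chromosomes 14, 17 and 19 also held less A at the distal than at the proximal end, at 34.0%, 49.1% and 44.6% against 39.2%, 57.0% and 47.8%. The fall on chromosome 7 from 68.6% to 1.51% rests on its sign as deposited.

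**Figure D4:**
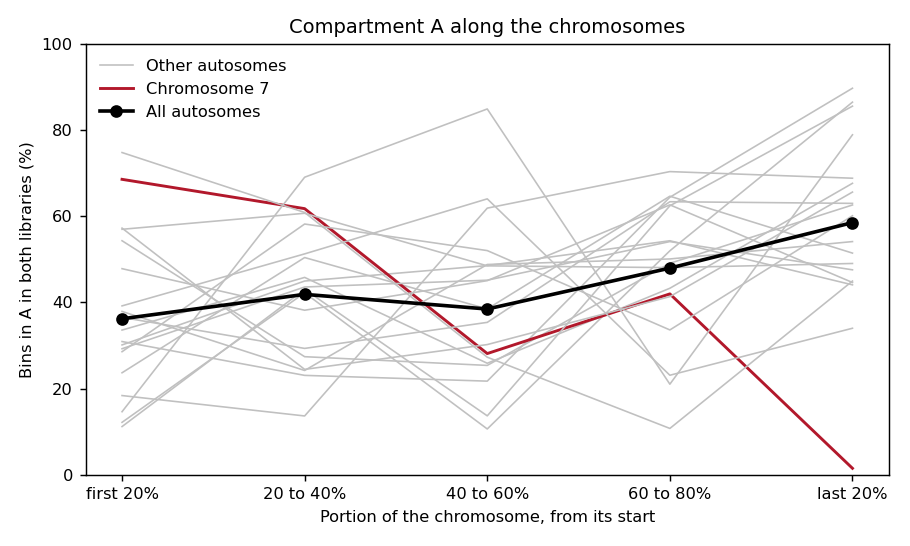
Share of bins in A in both libraries (percent) in 5 portions of the listed length of each autosome, from its start. The black line pools all 19 autosomes and goes from 36.2% to 58.5%; grey lines are single autosomes, and chromosome 7, in red, goes from 68.6% to 1.51% as deposited.

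The highest and the lowest bins were ranked across chromosomes that are each scaled to themselves, so the rankings do not compare levels between chromosomes. The highest bins were taken by the mean of the replicates, at most 1 within 2 Mb. The highest was on chromosome 10 from 126800001 to 126850000, with 2.15 in replicate 1 and 2.14 in replicate 2, in an A segment of 2.75 Mb that lay 97.5% along the chromosome. Next came chromosome 3 at 107950001 (2.17 and 2.04), chromosome 15 at 89050001 (2.16 and 2.03) and chromosome 16 at 94650001 (2.02 and 2.17). Chromosome 18 at 77950001 (2.11 and 2.07), chromosome 14 at 55700001 (2.14 and 2.04) and chromosome 16 at 91650001 (2.17 and 2.00) followed. The other 3 of the 10 were chromosome 14 at 121950001 (2.12 and 2.05), chromosome 18 at 75200001 (1.99 and 2.16) and chromosome 1 at 36550001 (2.09 and 2.05). The 10 means lay between 2.07 and 2.15, closer to each other than the replicates of several of them, so their order is not resolved. They sat in A segments of 1.4 to 6.75 Mb, none of them among the 10 longest. The mean PC1 of the bins within 500 kb was 1.35 to 1.94, so they lay in surroundings that were themselves high.

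The lowest bin was on chromosome 13 from 22300001 to 22350000, with -1.88 and -2.05, and chromosome 13 held 3 more of the 10, at 33600001 (-1.94 and -1.98), at 4450001 (-1.87 and -2.03) and at 15000001 (-1.85 and -1.75). Chromosome 3 followed at 90600001 (-1.87 and -1.89) and at 106050001 (-1.72 and -1.82). Chromosome 9 had 2, at 39850001 (-1.90 and -1.85) and at 7400001 (-1.86 and -1.72). The others were chromosome 14 at 50950001 (-1.86 and -1.88) and chromosome 12 at 102650001 (-1.87 and -1.76). The 10 means ran from -1.96 to -1.77, and several neighbours in this order lay closer to each other than their own replicates did.

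The low bins of chromosome 3 at 90600001 and 106050001, of chromosome 12 at 102650001 and of chromosome 9 at 39850001 stood out from their surroundings. The mean within 500 kb was -0.815, -0.836, -0.933 and -0.997 there. Around the lowest bin of all, on chromosome 13 at 22300001, it was -1.10, and that bin stood out nearly as far. Only 1 of the 10, on chromosome 9 at 7400001, fell in 1 of the 10 longest B domains. None of the 10 highest bins fell in 1 of the 10 longest A domains. The 10 longest domains hold 9.85% of A and 9.80% of B, so counts of 0 and 1 of 10 are near these shares.

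Of the lowest 1% of all bins (475 bins), 167 (35.2%) were on chromosome 9, which holds 5.10% of bins. Chromosome 6 had 75 of them, chromosome 13 had 69 and chromosome 3 had 51. The highest 1% was led by chromosomes 14 (70 bins), 3 (66), 10 (59) and 8 (50), and chromosomes 9, 11, 17 and 19 had none. Since each chromosome is scaled to itself, these counts follow the shape of its distribution: chromosome 9 has more bins above 0 and a longer tail below it, with a skewness of -0.342.

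Within chromosomes, the highest bin lay in the last 20% of the length on 8 of 19 autosomes and in the first 20% on 5. The lowest lay in the last 20% on 6, in the middle 20% on 6 and in the first 20% on 1, chromosome 13. The exact bin was rarely the same in both replicates: the highest was on 3 of 19 autosomes and the lowest on 1. Within 2 Mb of each other they lay on 10 and 8 autosomes.

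Where A and B bins adjoined directly, PC1 passed from one side to the other within a few bins. Bins of A and B were direct neighbours at 1022 borders, and 224 of these had 500 kb of a single compartment on both sides (211 without chromosome 7). There the mean PC1 was -0.837 at 475 kb into B, -0.607 at 75 kb and -0.290 at 25 kb. It was 0.260 at 25 kb into A, 0.630 at 75 kb and 0.931 at 475 kb. The median step between the 2 bins at the border was 0.543 (quartiles 0.371 and 0.692). The step made up 31.1% of the whole mean change over the 950 kb between the outermost bins. The replicates followed each other closely, with -0.294 and -0.286 on the B side and 0.268 and 0.253 on the A side of the border. Borders were chosen by sign, so the change of sign at 0 is given by the choice, and windows of 100 kb smooth any sharper step. A further 661 passages between A and B ran through bins of differing sign. They were not profiled, so the step does not describe all passages between A and B.

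**Figure D5:**
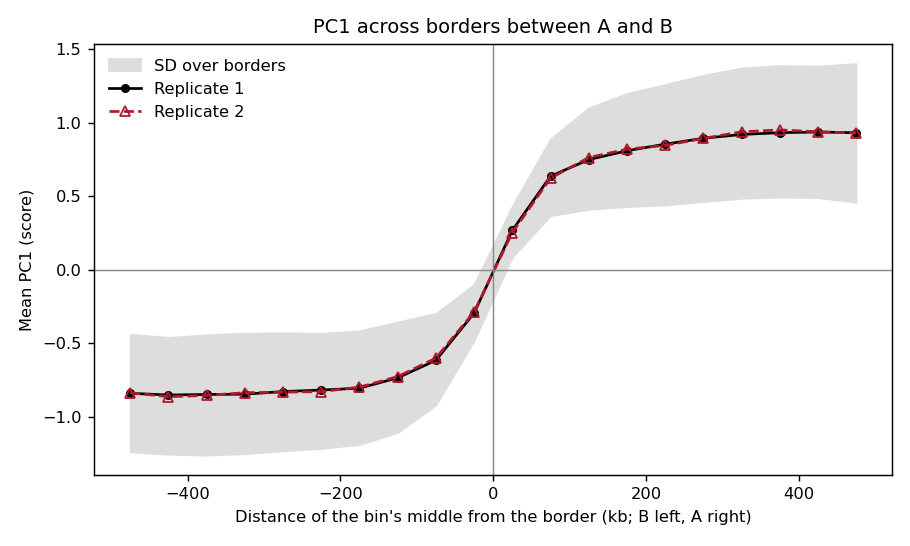
Mean PC1 in each replicate at 224 borders where A and B bins adjoined directly, against the distance of a bin's middle from the border in kb (B to the left, A to the right). The grey band is the SD over borders around the mean of both replicates; both replicates pass from about -0.84 to 0.93, and 84.0% of the mean change lies within 125 kb of the border.

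PC1 kept its neighbourhood over about 1 Mb. Across pairs of bins on the same chromosome, mean PC1 correlated with r = 0.950 at 100 kb, 0.748 at 500 kb, 0.569 at 1 Mb, 0.358 at 2 Mb and 0.0985 at 5 Mb. The call was the same in 89.6%, 77.6%, 70.2%, 62.4% and 52.0% of these pairs. At 10 Mb, where r was 0.0620, it was still the same in 50.1% of pairs, so the value at 5 Mb is near this level. The difference between replicates had no such reach: its r was 0.491 between direct neighbours, whose windows overlap, and 0.0192 at 100 kb, where they do not. Pooled over the autosomes, the differences between replicates were thus mostly local. A shift of a whole chromosome could not be seen, since each is centred on 0, and single chromosomes or domains were not examined in this way.

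The 1582 bins of opposite sign had means near 0, which follows largely from how they were chosen. Where the signs are opposite, the mean cannot lie far from 0 unless the replicates lie far apart, and few bins did. Their median absolute mean PC1 was 0.0454, against 0.894 over all bins. Of the bins with a mean PC1 from -0.25 to 0, 26.7% differed in sign, and of those from 0 to 0.25, 28.5%. Beyond 0.25 on either side only 3 did, 1 below and 2 above. Replicate 1 was the positive one in 800 of them and replicate 2 in 782. In 12 bins both replicates were past 0.25 with opposite signs, and in none were both past 0.5. These bins formed 1121 runs, of which 821 (73.2%) were single bins. Runs between an A and a B segment numbered 661 and held 860 of the bins (54.4%). Those inside A numbered 212 (347 bins, 21.9%) and those inside B 239 (366 bins, 23.1%), and 9 lay at a chromosome end or beside a bin without a value.

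The longest run of opposite signs spanned 400 kb on chromosome 4 from 58300001 to 58700000, at 0.124 and -0.0680 in the replicates. Runs of 350 kb lay on chromosome 2 from 67600001 to 67950000 (-0.104 and 0.110) and on chromosome 5 from 72100001 to 72450000 (0.0162 and 0.0675 on average, with signs that alternated between bins). Runs of 300 kb lay on chromosome 9 from 115350001 (0.0986 and -0.132), on chromosome 13 from 47800001 (0.0210 and -0.000825) and on chromosome 18 from 3900001 (0.160 and -0.292). The other 4 of the 10 longest were 250 kb long and had replicate means between -0.113 and 0.130. Apart from the run on chromosome 18, these were stretches where both replicates averaged close to 0, and neither compartment can be given.

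Chromosome 18 had the widest spread between replicates. Its r between replicates was 0.968, the lowest of the autosomes, whose median was 0.987, and the SD of the difference was 0.251 against a median of 0.162. The replicates differed in sign in 6.49% of its bins, against 1.03% to 4.72% on the other 18 autosomes. It held 3.70% of all bins but 114 (7.21%) of those with opposite signs, 5 of the 12 in which both replicates were past 0.25, and 86 of the 263 in which they lay more than 0.5 apart. The fine division of chromosome 18 into short segments moves with this spread, and the part of the spread in it was not tested.

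Of the 10 largest differences between replicates, 6 were on chromosome 18. The largest was at 4000001 on that chromosome, with 0.469 in replicate 1 and -0.699 in replicate 2, inside the 300 kb run named above. It was followed by 64750001 (0.270 and 1.22), 76050001 (0.999 and 0.146), 30850001 (-0.983 and -0.170), 70000001 (-0.427 and 0.365) and 55350001 (0.120 and 0.840). The others were chromosome 3 at 149700001 (-0.450 and -1.27), chromosome 15 at 95650001 (0.637 and 1.44), chromosome 14 at 124650001 (0.750 and 0.0210) and chromosome 10 at 117350001 (1.05 and 0.329). In 8 of the 10 the sign was the same in both replicates, so that even most of the widest gaps left the compartment unchanged.

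Within the listed span of the autosomes 783 bins (39.15 Mb) lacked a value in either or both of the libraries, in 97 stretches. Chromosome 7 held 266 of them (34.0%), and the longest stretch was there, 6.95 Mb from 39400001 to 46350000, between positive bins at 1.08 and 1.10. Chromosome 1 had 2.05 Mb without values from 85300001 to 87350000, between B bins at -0.946 and -0.775. Chromosome 8 had 2 Mb from 20050001 to 22050000, between a bin of differing sign and a B bin at -0.498. Chromosomes 9, 15 and 18 had no gap. These stretches end segments on both sides, so segments beside them are lower limits of the domain's length.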

How the data were processed

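Hi-C was measured in 2 Basal libraries of sorted hippocampal neuronal nuclei. The authors deposited PC1 as a signed score for each 50 kb bin. The submitters' processing notes name HOMER and the build mm9, and the 100 kb window is read from the file names. The versions, the aligner, the read filters and how the sign was set were not given in the sources used here. Coordinates are 1-based in mm9. The 3 libraries of the other groups were not used.

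From the scores, bins were called by sign in both libraries and joined into segments of direct neighbours. Python 3.11.15, numpy 2.4.6, pandas 2.3.3, scipy 1.17.1 and matplotlib 3.10.9 were used. Segmentation was checked on simulated runs. No test was run, since a single group of 2 libraries allows no comparison. Named regions are the 10 longest A and B segments, the 10 highest and lowest bins and the 10 largest replicate differences (at most 1 bin within 2 Mb), the 10 longest runs of opposite sign, and the 3 chromosomes at either end of each ranking. Members and rules were chosen with earlier results of these data known. The gene table used is of another build (GRCm38.p6), so genes were not placed in bins, and gene lists and sequence features were not analysed here.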

Additional observations from a re-analysis of the deposited data

How the results depend on the processing

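B held more bins than A as deposited and under 10 of the 11 alternatives that give shares; with chromosome medians set to 0 both held 48.2%, which follows by construction. The last 20% of the chromosomes held more A than the first under all of them. The numbers of segments stayed within 1.5 times, from 839 to 1195 in A and from 899 to 1246 in B. The sign of chromosome 7 decided the longest B segment. Without chromosome 7 it was 12800 kb, 50% of B lay in segments of at least 2650 kb, and A held 45.1%, B 51.5% and opposite signs 3.47% of bins. A then held 34.4% of the first and 62.3% of the last 20%, and r between replicates was 0.987. Inverting chromosome 7, an alternative chosen after seeing the data, gave 46.0% A, 50.7% B, a longest A of 24800 kb, a longest B of 12800 kb, 50% lengths (50% of a compartment in segments at least this long) of 3400 kb in A and 2700 kb in B, and 34.2% and 64.6% of A in the first and last 20%.

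Requiring both libraries to pass 0.1 gave 42.3% A and 49.5% B, longest segments of 19200 and 24750 kb, a median B segment of 350 kb, 50% lengths of 2950 and 2600 kb, and 33.9% and 56.1% of A in the first and last 20%. Passing 0.25 gave 38.9% and 45.6%, 19100 and 19750 kb, 350 kb, 2550 and 2350 kb, and 31.3% and 52.4%. The sign of the mean gave 46.3% and 53.7%, 19500 and 24850 kb, a median A segment of 300 kb, 50% lengths of 3350 and 3050 kb, and 37.9% and 60.1%. Medians set to 0 gave opposite signs in 3.66%, longest segments of 27800 and 17450 kb, a median B segment of 350 kb, 50% lengths of 3350 and 2450 kb, 39.8% and 61.4% of A in the first and last 20%, and r of 0.988. A running median of 3 bins gave 44.8% A, 52.3% B, 2.90% opposite, medians of 450 and 600 kb, a longest A of 19750 kb, 50% lengths of 3400 and 3150 kb, 58.8% of A in the last 20%, and r of 0.990. Every second bin gave 44.7%, 52.0% and 3.32%, medians of 400 and 500 kb, a longest A of 19400 kb, 50% lengths of 3300 and 3000 kb, 58.6% and r of 0.988. Leaving out 5 Mb at each end gave 44.1%, 52.5% and 3.41%, a longest B of 19800 kb, 50% lengths of 3050 and 2950 kb, 35.7% and 57.3% of A in the first and last 20%, and r of 0.988. Joining runs across a single bin gave medians of 350 and 550 kb and 50% lengths of 3400 and 3050 kb.

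Single replicates gave 46.3% to 46.4% A, 53.6% to 53.7% B, 1142 to 1162 A and 1173 to 1194 B segments, medians of 250 kb in A and 350 to 400 kb in B, longest segments of 19450 to 19500 kb and 24800 to 24850 kb, 50% lengths of 3150 to 3250 kb in A and 3000 kb in B, and 37.8% to 37.9% and 60.1% of A in the first and last 20%. No paired analysis was possible because the Basal libraries form a single group. The planned share of genes in A was not run, for want of an annotation of the build. The depth is unknown, so it cannot be said which limits it sets.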
